A study of Homo sapiens with 4 samples.

Results

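Kinesins are motor proteins that walk along or take apart microtubules, and their genes were followed here after transfection of miR-31 into LNCaP, an established line of human prostate cancer cells. Members were the probes that the platform annotation gives a single symbol beginning with KIF and a digit, or with KIFC. The rule used names alone and found 57 of the 47231 probes on the array, standing for 41 genes. Of these, 31 probes of 25 genes were bright enough to be tested. One group was made up of cells transfected with 50 nM miR-31 for 48 h (2 Illumina bead arrays), set against cells given 50 nM of the control microRNA miR-NC for the same time (2 arrays). All were cultured in RPMI medium with 10% foetal bovine serum. Repeat numbers are given for the samples, without a statement that each repeat had its own culture. The p-values therefore cover the spread between these 4 samples and no more, and that spread may be technical. A transient transfection of a single line limits what the groups stand for, and the labels do not name the arm of miR-31 that was used.

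The mature form listed by RefSeq (GRCh38.p14) lies at chr9:21512158-21512178 on the minus strand. It is shown because it is the agent compared, with the seed, bases 2 to 8, in capitals.
hsa-miR-31-5p: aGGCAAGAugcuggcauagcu

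In dividing cells one set of kinesins builds and elongates the spindle, moves chromosomes and closes the midbody. These mitotic kinesins are made mainly in the G2 and M phases, and their messengers are scarce in resting cells. Transport kinesins carry mitochondria, vesicles and membrane proteins towards the cell edge in dividing and resting cells alike, usually with the help of light chains or adaptors. A remaining set acts in cilia, at centrioles, in Hedgehog signalling or in the control of microtubule growth. By these roles the 41 genes fell into 13 mitotic, 15 transport and 13 remaining kinesins.

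The share of probes detected differed most between the miR-31 arrays. Before normalization the median signal was 82.5 and 74.6 on miR-31 replicates 1 and 2, against 92.5 and 86.4 on the miR-NC arrays. Between 34.6% and 40.7% of all probes were detected on the miR-31 arrays, against 37.6% to 38.1% on the miR-NC arrays, and 27 and 29 kinesin probes were detected on the miR-31 arrays, against 31 on each miR-NC array. The prostate luminal markers KLK2, KLK3, HOXB13, FOLH1, TMPRSS2 and KRT8 were detected on all 4 arrays, and KRT18 on 1. Summed over those 7 markers, the linear signal was 7756 to 8609 in miR-31 cells, against 9649 to 11600 in miR-NC cells. TMPRSS2, a serine protease of luminal cells, fell 1.64-fold (limma adjusted p = 0.0191), and the other tested markers did not pass. The part of this lower luminal signal in the kinesin values was not tested. The basal markers KRT5 and KRT14 were detected on no array. Of 7 stromal, endothelial and leukocyte markers, 3 were detected on no array and 4 on a single array, with summed signals of 254 to 262.3 in miR-31 cells, against 237.2 to 285.1 in miR-NC cells. Values below are normalized log2 signals, 1 per array, given for replicates 1 and 2 of each group.

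Mitotic kinesins were lower in miR-31 cells, and transport kinesins as a group were not. Of 11 tested mitotic kinesins, 7 fell and 0 rose. All 11 had negative values, KIFC1 and KIF18A by way of the filter on dim probes. The median log2 change of the 11 was -1.11, a 2.16-fold decrease. That median is the value of KIFC1, which was not detected in miR-31 cells. With KIFC1 and KIF18A each set to the smallest decrease that the detection floor allowed, it was -1.08. Of 10 tested transport kinesins, 2 rose and 0 fell in limma's test (1 fell and 2 rose at an unadjusted p under 0.05), and the median log2 change was 0.016. Of the 4 tested remaining kinesins, 1 fell. Over all 10754 tested genes, 5.24% were called lower and 2.43% higher, and the median log2 change was -0.016. At the probe level 6.17% of all tested probes passed. A call means a Benjamini-Hochberg adjusted p under 0.05 in limma over all tested probes, and with so few arrays every value has limited precision. The difference between mitotic and transport kinesins is a description of these genes and was not tested. In RNA from a whole culture, fewer cells in mitosis and less of these messengers per cell cannot be told apart.

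**Figure D1:**
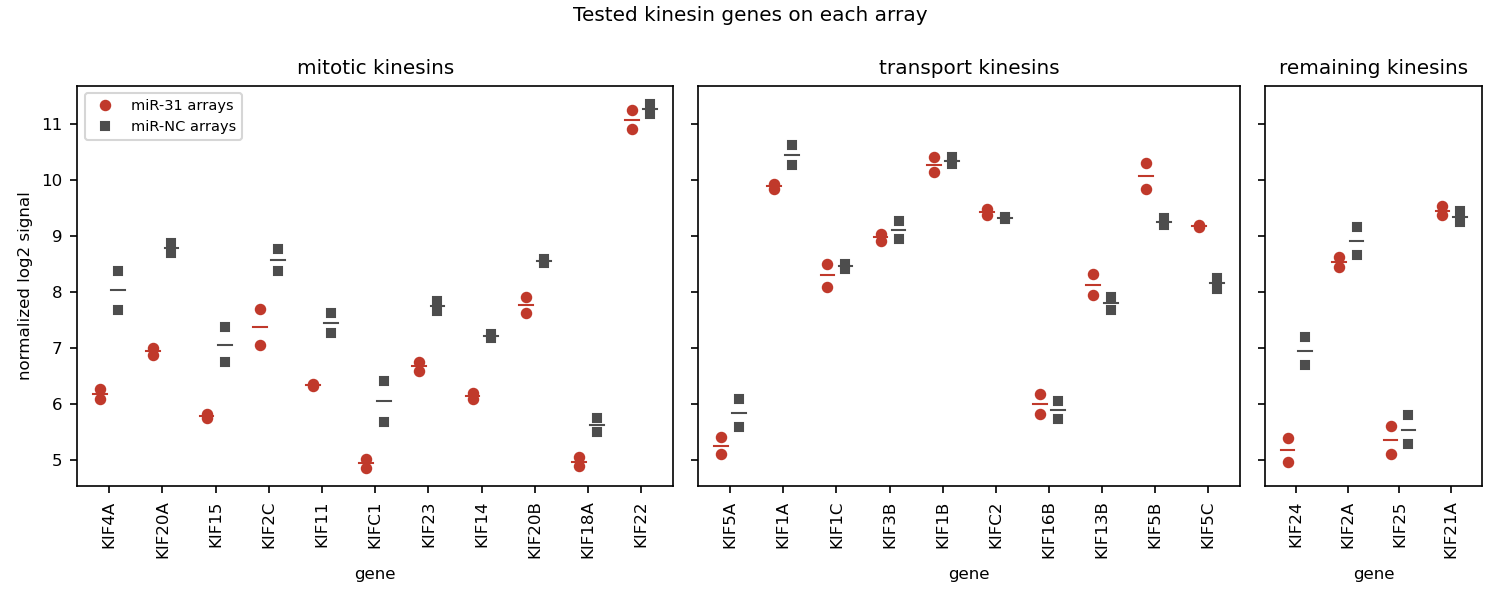
Normalized log2 signal (vertical axis) of each of the 25 tested kinesin genes, with 2 miR-31 arrays (circles) beside 2 miR-NC arrays (squares) and short lines at the group means. In 10 of 11 mitotic kinesins both miR-31 arrays lie below both miR-NC arrays, against 30.1% of all tested genes. Of these, KIFC1 and KIF18A were tested through the miR-NC arrays alone. KIF5B, KIF5C, KIF13B and KIFC2 show the opposite order, against 24.8% of all tested genes.

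The groups did not overlap in 10 of the 11 tested mitotic kinesins, all lower in miR-31 cells and 2 of them (KIFC1 and KIF18A) tested through the miR-NC arrays alone, while 30.1% of all tested genes were lower without overlap and 24.8% higher without overlap. Among transport kinesins 2 were lower and 4 higher without overlap, and 4 overlapped. The lower ones were KIF1A and KIF5A, and KIF5A was tested through the miR-NC arrays alone. Taken array by array as the deviation from each gene's miR-NC mean, the median over the mitotic kinesins was -1.02 on miR-31 replicate 1 and -1.13 on replicate 2, against 0.12 and -0.12 on the miR-NC arrays. The same median over the transport kinesins was -0.015 and 0.10 on the miR-31 arrays, against 0.038 and -0.038 on the miR-NC arrays. Both miR-31 arrays thus showed the shift of the mitotic kinesins to a similar extent.

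The motors of the central spindle and midbody included the member with the smallest p. KIF20A, also called MKLP2, brings the chromosomal passenger complex to the central spindle for cytokinesis. It had signals of 7.01 and 6.87 in miR-31 cells, against 8.88 and 8.69 in miR-NC cells, and fell 3.59-fold (log2 change -1.84 ± 0.21, SE; limma adjusted p = 0.00325). KIF4A, a chromosome-bound motor that works with PRC1 to set the length of the central spindle, had signals of 6.08 and 6.27 in miR-31 cells, against 8.38 and 7.69 in miR-NC cells. It fell 3.62-fold (-1.86 ± 0.29, SE; limma adjusted p = 0.00874), with miR-NC arrays that differed from each other by more than the miR-31 arrays did. KIF23, or MKLP1, is the motor subunit of the centralspindlin complex. Its brighter probe had 6.76 and 6.59 in miR-31 cells, against 7.85 and 7.66 in miR-NC cells, and fell 2.11-fold (-1.08 ± 0.24, SE; limma adjusted p = 0.0324). Its other tested probe, drawn from a different transcript accession, had 6.04 and 5.45 in miR-31 cells, against 5.86 and 5.74 in miR-NC cells, and the log2 change was -0.052 (limma adjusted p = 0.947). The 2 probes thus disagree, and averaged over its probes KIF23 lost its call (-0.56, adjusted p = 0.190).

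KIF14, which brings citron kinase to the midbody, had 6.19 and 6.09 in miR-31 cells, against 7.25 and 7.18 in miR-NC cells. It fell 2.10-fold (-1.07 ± 0.25, SE; limma adjusted p = 0.0385). KIF20B, another motor of late cytokinesis, had 7.62 and 7.92 in miR-31 cells, against 8.51 and 8.59 in miR-NC cells. Its groups did not overlap, but its value of -0.78 ± 0.21 (SE) missed the threshold (limma adjusted p = 0.0627). It passed when only probes detected on all 4 arrays at p under 0.01 were tested (adjusted p = 0.0446), when probes were averaged by gene (0.0309) and with the replicate number as a block (0.0191).

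The motors that build the bipolar spindle were lower as well. KIF11, or Eg5, slides antiparallel microtubules apart to separate the poles, and KIF15 can support the same task. KIF11 had 6.35 and 6.32 in miR-31 cells, against 7.62 and 7.28 in miR-NC cells, and fell 2.17-fold (-1.11 ± 0.25, SE; limma adjusted p = 0.0361), and its other tested probe passed too, at -1.30 ± 0.26 (adjusted p = 0.0219). KIF15 had 5.74 and 5.83 in miR-31 cells, against 7.37 and 6.75 in miR-NC cells, and fell 2.42-fold (-1.28 ± 0.29, SE; limma adjusted p = 0.0372). The miR-31 arrays lay close together in both genes, and the miR-NC arrays lay further apart in KIF15. KIFC1, a minus-end motor that focuses spindle poles and clusters extra centrosomes, was not detected in miR-31 cells, where its signals were 4.86 and 5.02, against 6.42 and 5.68 in miR-NC cells. By group means alone it was at least 1.48-fold lower. KIFC1 entered the test through the miR-NC arrays alone, which fixed its direction, and it did not pass (limma adjusted p = 0.0799). With the replicate block its limma adjusted p was 0.0345, but the repeat numbers were not taken as pairs.

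Motors that act on chromosomes and on microtubule ends differed among themselves. KIF2C, or MCAK, takes microtubules apart at kinetochores and corrects faulty attachments. It had 7.70 and 7.05 in miR-31 cells, against 8.77 and 8.37 in miR-NC cells, and fell 2.29-fold (-1.19 ± 0.27, SE; limma adjusted p = 0.0359). KIF18A, which damps chromosome movement at the metaphase plate, was not detected in miR-31 cells, with 4.89 and 5.05, against 5.74 and 5.49 in miR-NC cells. By group means alone it was at least 1.10-fold lower, and it did not pass (limma adjusted p = 0.221). Its other probe was not tested. KIF22, or Kid, pushes chromosome arms away from the poles. It had 11.25 and 10.91 in miR-31 cells, against 11.36 and 11.19 in miR-NC cells, and was the only tested mitotic kinesin whose groups overlapped (-0.20 ± 0.16, SE; limma adjusted p = 0.523). KIFC1 and KIF18A entered the test through the miR-NC arrays alone, so their direction was fixed by the filter. With both at their bounds the mitotic median was -1.08, and when only probes with a detection p under 0.01 on all 4 arrays were tested, 7 of 8 mitotic kinesins fell. KIF2B and KIF4B, a testis-expressed relative of KIF2C and a retrocopy of KIF4A, were not detected on any array.

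**Figure D2:**
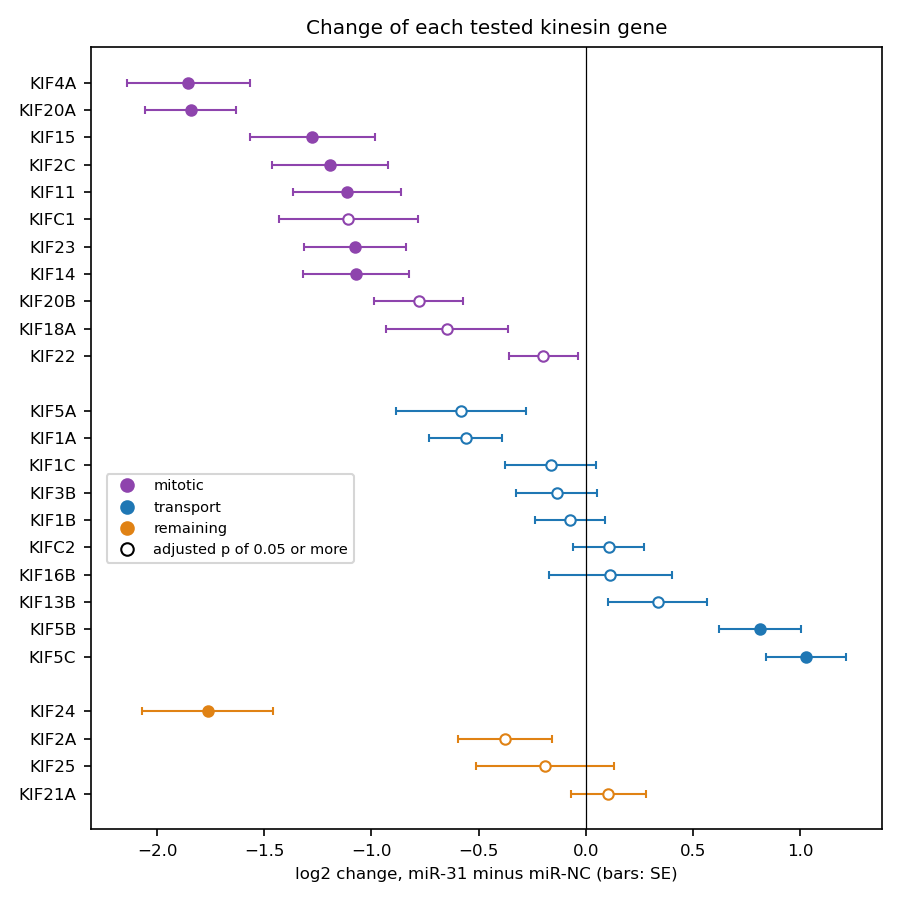
Log2 change (miR-31 minus miR-NC) with its standard error for the 25 tested kinesin genes, ordered within mitotic, transport and remaining kinesins. Filled points passed the threshold, and they lie left of 0 for 7 mitotic kinesins and KIF24, and right of 0 for KIF5B and KIF5C.

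Calls depended on single arrays of either group, on the normalization and on the variance model. The direction of the 9 mitotic kinesins detected on miR-31 arrays did not. Without miR-31 replicate 1 no kinesin was called in limma (12 of 25 at an unadjusted p under 0.05), and the mitotic median was -1.13. Without miR-31 replicate 2 none was called (13 of 25), and the median was -1.02. Without miR-NC replicate 1 the mitotic calls were KIF20A and KIF4A, with a median of -0.97, and without miR-NC replicate 2 there were 8, with a median of -1.29. The 9 mitotic kinesins detected on miR-31 arrays had negative values in each case. KIFC1 and KIF18A, whose direction the filter fixed, are left out of these 9 but enter the medians. KIFC1 is also among the calls made without miR-NC replicate 2. With the arrays aligned on their medians in place of quantile normalization, KIF24 was the only kinesin called, with a mitotic median of -1.14. With the authors' normalized values KIF20A, KIF4A and KIF23 were called among mitotic kinesins. Without a variance trend these were KIF4A, KIF14 and KIF20A.

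**Figure D3:**
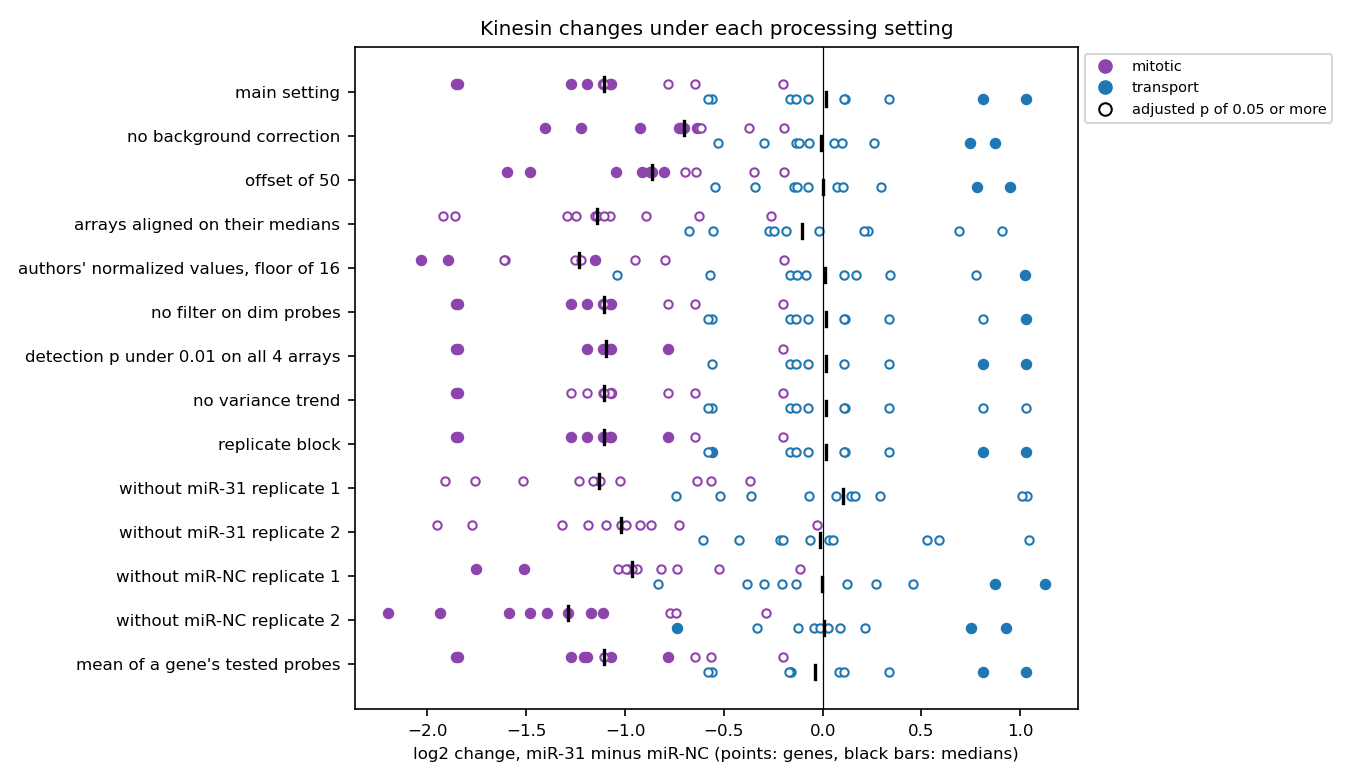
Log2 change (horizontal axis) of the tested mitotic and transport kinesins under each processing setting, for the genes tested in the main setting, with black bars at the medians of the plotted genes and open points where the adjusted p was 0.05 or more. All mitotic points lie left of 0 in every setting drawn, which the filter fixed for KIFC1 and KIF18A, while the number of filled mitotic points runs between 0 and 9.

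Among transport kinesins, 2 of the 3 conventional kinesin heavy chains, KIF5B and KIF5C, rose. KIF5B, KIF5C and KIF5A are the heavy chains of kinesin-1, which carries mitochondria, vesicles and RNA granules, KIF5B in most tissues and the others mainly in neurons. KIF5C had 9.20 and 9.17 in miR-31 cells, against 8.26 and 8.06 in miR-NC cells, and rose 2.04-fold (log2 change 1.03 ± 0.19, SE; limma adjusted p = 0.0149). KIF5B had 9.85 and 10.30 in miR-31 cells, against 9.32 and 9.20 in miR-NC cells, and rose 1.76-fold (0.81 ± 0.19, SE; limma adjusted p = 0.0406). The miR-31 arrays were above the miR-NC arrays in both genes. KIF5A was not detected in miR-31 cells, with 5.41 and 5.10, against 5.59 and 6.09 in miR-NC cells. By group means alone it was at least 1.28-fold lower, and it did not pass (limma adjusted p = 0.300). KIF5A also entered the test through the miR-NC arrays alone, and with it at its bound the transport median was 0.016. Both calls were lost without miR-31 replicate 1 (KIF5C 1.01, adjusted p = 0.130; KIF5B 1.04, adjusted p = 0.0978), without miR-31 replicate 2 (1.04, adjusted p = 0.129; 0.59, adjusted p = 0.259), without a variance trend (adjusted p = 0.0574 and 0.129) and with median alignment (0.91 and 0.69, adjusted p = 1 for each). KIF5B did not pass either when dim probes were kept (adjusted p = 0.0761) or with the authors' values (0.77, adjusted p = 0.0609).

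The kinesin-3 motors carry synaptic vesicle precursors, dense-core vesicles and endosomes. KIF1A had 9.85 and 9.94 in miR-31 cells, against 10.63 and 10.28 in miR-NC cells. Its groups did not overlap and its value was -0.56 ± 0.17 (SE), which missed the threshold (limma adjusted p = 0.0907) but passed with the replicate block (adjusted p = 0.0371) and without miR-NC replicate 2 (-0.74, adjusted p = 0.0213). KIF1B, which moves mitochondria and synaptic vesicle precursors in different splice forms, overlapped at its brightest probe, with 10.14 and 10.42 in miR-31 cells, against 10.29 and 10.42 in miR-NC cells. Its other tested probes had log2 changes of -0.59 (adjusted p = 0.196) and 0.18 (adjusted p = 0.764), so the KIF1B probes did not move together. KIF13B had 8.33 and 7.94 in miR-31 cells, against 7.92 and 7.68 in miR-NC cells, and its groups were apart by a small margin (0.33 ± 0.23, SE; adjusted p = 0.439). KIF1C had 8.49 and 8.10 in miR-31 cells, against 8.42 and 8.50 in miR-NC cells, and KIF16B, a motor of early endosomes, had 5.83 and 6.18 in miR-31 cells, against 6.05 and 5.73 in miR-NC cells. Both overlapped, with log2 changes of -0.16 and 0.11 (adjusted p = 0.723 and 0.868).

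KIF3B belongs to the heterotrimeric kinesin-2 that carries cargo along cilia. It had 8.92 and 9.05 in miR-31 cells, against 8.95 and 9.28 in miR-NC cells, and its 2 tested probes gave -0.14 and -0.20 (adjusted p = 0.741 and 0.594). KIFC2, a C-terminal motor known from neurons, had 9.38 and 9.49 in miR-31 cells, against 9.35 and 9.31 in miR-NC cells (0.11 ± 0.17, SE; adjusted p = 0.770). KIF3B overlapped between groups, and KIFC2 was higher without overlap by less than its error. KIF3A, KIF3C, KIF13A, KIF17 and KIFC3 were detected on no array and were not tested.

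Of the remaining kinesins, KIF24 fell with the mitotic set. KIF24 is a kinesin of the depolymerising family that sits at centrioles and restrains the growth of cilia. It had 4.96 and 5.40 in miR-31 cells, detected on 1 of the 2 arrays, against 7.20 and 6.69 in miR-NC cells. It fell 3.40-fold (-1.77 ± 0.31, SE; limma adjusted p = 0.0122) and kept its call under every alternative run except leaving out miR-31 replicate 1 (-1.55, adjusted p = 0.128) or miR-31 replicate 2 (-1.98, adjusted p = 0.0943), and except the stricter filter, under which it was not tested. KIF2A, a depolymerase of spindle poles and of growing neurons, had 8.44 and 8.63 in miR-31 cells, against 9.17 and 8.66 in miR-NC cells (-0.38 ± 0.22, SE; adjusted p = 0.353). Counting KIF2A as mitotic left the mitotic median at -1.09. KIF21A, which slows microtubule growth, had 9.37 and 9.54 in miR-31 cells, against 9.25 and 9.45 in miR-NC cells, and KIF25 had 5.10 and 5.61 in miR-31 cells, against 5.80 and 5.29 in miR-NC cells. Both overlapped between groups, with log2 changes of 0.11 and -0.19. KIF6, KIF9, KIF12, KIF19, KIF21B and KIF26A were detected on no array. KIF7, KIF26B and KIF27 were each detected on a single array, and none of these 9 genes was tested.

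Several kinesin families hold members of different roles, and their log2 changes differed within the family. In kinesin-3, KIF14 stood at -1.07 and the transport members between -0.56 (KIF1A) and 0.33 (KIF13B). In kinesin-4, KIF4A stood at -1.86 and KIF21A at 0.11. Kinesin-13 held KIF24 at -1.77, KIF2C at -1.19 and KIF2A at -0.38. In kinesin-14, KIFC1 was at least 1.48-fold lower, undetected in miR-31 cells and tested through the miR-NC arrays alone. KIFC2, of the same family, had a log2 change of 0.11, and KIF25 had -0.19. The 3 members of kinesin-6, KIF20A, KIF23 and KIF20B, stood at -1.84, -1.08 and -0.78. KIF24, a remaining kinesin, thus had the lowest value of its family, ahead of the mitotic KIF2C. Its value rests on a dim signal, detected on 1 of the 2 miR-31 arrays, while KIF2C was detected on both. These values are set side by side, and differences between family members were not tested.

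**Figure D4:**
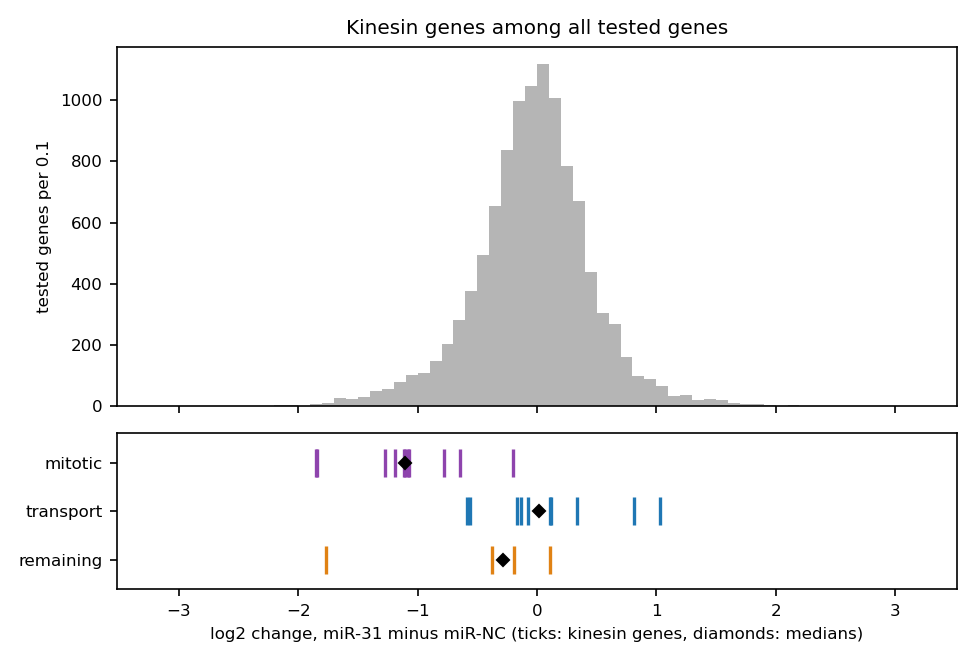
Upper panel: number of tested genes (vertical axis) in each 0.1 step of log2 change, miR-31 minus miR-NC. Lower panel: ticks for the tested mitotic, transport and remaining kinesins with diamonds at their medians, which lie at -1.11, 0.016 and -0.28.

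Of 13 tested genes that work with mitotic kinesins, 8 fell, 0 rose and 5 did not pass, while 5.24% of all tested genes were called lower. Among the 8, the gene closest to the threshold (limma adjusted p = 0.0491) was detected on only 1 of the 2 miR-31 arrays. The median log2 change of the 13 was -1.17. All 13 were lower without overlap between the groups, against 30.1% of all tested genes. NUSAP1, a protein that bundles spindle microtubules, fell 3.13-fold (-1.65 ± 0.17, SE; limma adjusted p = 0.00192). TPX2, which activates Aurora A on the spindle, fell 2.53-fold (-1.34 ± 0.19). AURKB, the kinase that KIF20A carries to the central spindle, had 6.97 and 7.03 in miR-31 cells, against 8.30 and 8.71 in miR-NC cells, and fell 2.84-fold (-1.50 ± 0.23). PRC1, the bundling protein on which KIF4A acts, had 9.89 and 9.90 in miR-31 cells, against 10.90 and 10.77 in miR-NC cells, and fell 1.92-fold (-0.94 ± 0.15). CENPE, a kinetochore kinesin without a KIF symbol, had 7.89 and 7.78 in miR-31 cells, against 8.54 and 8.40 in miR-NC cells, and did not pass (-0.64 ± 0.20, SE; adjusted p = 0.102).

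Partners of transport kinesins and the opposite motor showed no calls. Of 14 tested adaptors, 0 passed in limma (1 at an unadjusted p under 0.05), with a median log2 change of 0.18. Without overlap 5 of these 14 were higher and 2 lower, against 24.8% and 30.1% of all tested genes. KIFAP3, the cargo-binding subunit of kinesin-2, had 10.12 and 9.92 in miR-31 cells, against 9.67 and 9.56 in miR-NC cells (0.40 ± 0.16, SE; adjusted p = 0.187). KLC1, a light chain of kinesin-1, had 9.88 and 9.62 in miR-31 cells, against 9.51 and 9.30 in miR-NC cells (0.35 ± 0.18, SE; adjusted p = 0.293). KLC2 was not tested. The adaptor SPAG9 and the kinesin receptor KTN1 had values of 0.37 and 0.38 (adjusted p = 0.293 and 0.309). Of 21 tested cytoplasmic dynein and dynactin genes, 0 passed in limma (2 lower and 5 higher at an unadjusted p under 0.05), with a median of 0.11. Over all 10754 tested genes 1577 were lower and 1146 higher at that unadjusted p. Without overlap 12 of the 21 dynein and dynactin genes were higher and 3 lower, beside the same 24.8% and 30.1%. The 4 with the smallest p were DCTN3 (0.50, adjusted p = 0.0713), DCTN4 (-0.56, 0.105), DYNLT3 (0.71, 0.109) and PAFAH1B1 (0.50, 0.116), which encode dynactin subunits, a dynein light chain and the dynein regulator LIS1.

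Promoters were searched for short motifs that the choice of members did not use, and 8 of 11 tested mitotic kinesins held both CCAAT and CHR letters. Many genes of the G2 and M phases carry a cell cycle homology region (CHR), bound by the MuvB complex with DREAM or B-MYB, and CCAAT boxes bound by NF-Y. The windows searched ran from 250 bases before to 50 bases after each annotated start (RefSeq, GRCh38.p14), on both strands, for CCAAT and for a CHR written as TTTGAA or TTCGAA. The CCAAT letters and the CHR letters were searched separately. Windows were found for 33 of the 41 kinesin genes. A gene was counted where any of its windows held a match. The 8 mitotic kinesins with both motifs were KIF4A, KIF11, KIF14, KIF18A, KIF20B, KIF22, KIF23 and KIFC1, against 1 of 7 tested transport kinesins with a window (KIF5B). Among all 27305 genes with a window 7.85% held both, and among the tested genes with a window 6.65% did. A CHR, with or without CCAAT, was found in 15.7% of tested genes with a window, and CCAAT, with or without a CHR, in 44.1%.

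Motif matches and lower values did not coincide in every gene. KIF22 held both motifs and overlapped between groups, and KIF5B held both and rose, with its CHR upstream of its CCAAT box. KIF18A, KIF20B and KIFC1 held both and did not pass (limma adjusted p = 0.221, 0.0627 and 0.0799). KIF2C held neither and fell, KIF20A held CCAAT boxes without these CHR letters and fell, and KIF15 held a CHR alone and fell. KIF24, from the remaining set, held both. Of the 8 kinesins that fell, 5 held both motifs. An E2F site, searched by its letters on either strand as TTCCCGC, with variants that read TTCGCGC and TTGGCGC, and also TTGCCGC, was found in 3 of 11 mitotic and 2 of 7 transport kinesins, against 24.9% of tested genes with a window. A match is a run of letters and not a bound site, and windows without one say nothing about the factor.

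**Figure D5:**
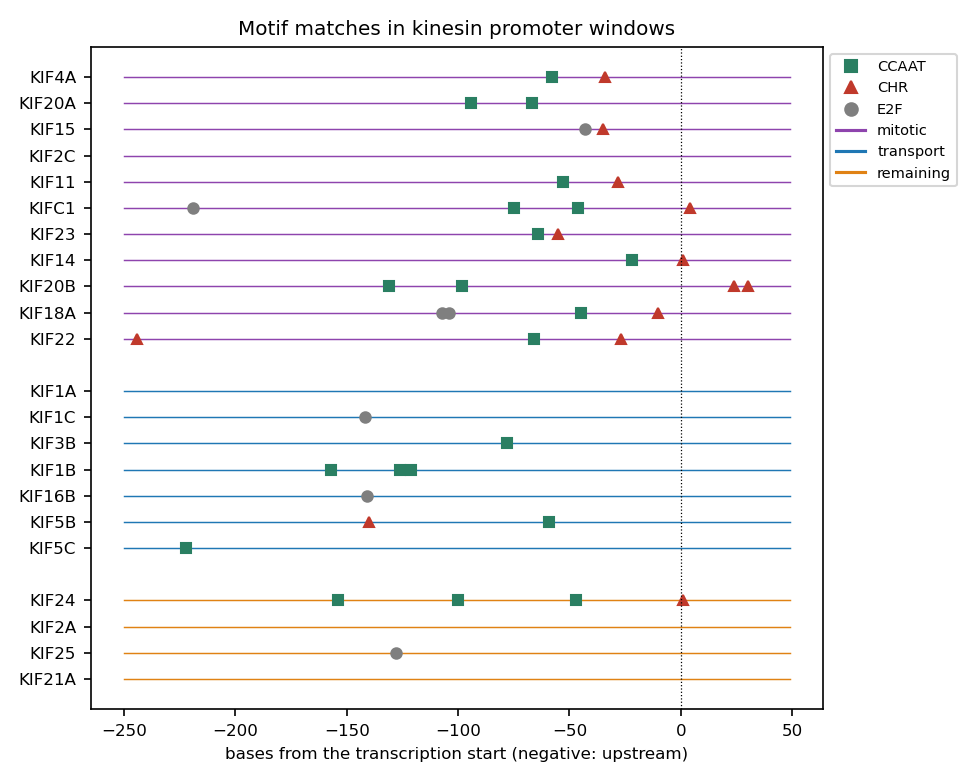
Positions of CCAAT, CHR and E2F letter matches relative to the annotated transcription start (horizontal axis, in bases) in the promoter windows of the tested kinesins, with windows of genes that have several starts drawn on 1 line. In KIF4A, KIF11 and KIF14 a CHR lies 24, 25 and 23 bases downstream of a CCAAT box, counted from first base to first base, and KIF2C has no match.

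The windows below run from position -150 to position 19, counted from 0 at the start itself and negative upstream, with complete CCAAT and CHR matches in capitals on either strand. Spacing was counted from the first base of the CCAAT match to the first base of the nearest CHR match. It was 24 bases in KIF4A, 25 in KIF11, 23 in KIF14, 9 in KIF23, 48 in KIF24 and 39 in KIF22. In windows not shown it was 35 in KIF18A, 50 in KIFC1 and 122 in KIF20B. KIF4A, KIF11, KIF14, KIF23 and KIF24 are shown as genes that fell with both motifs, and KIF20A as the gene with the smallest p. KIF22 and KIF5B are shown as examples of genes with both motifs that were not called lower, as KIF18A, KIF20B and KIFC1 were not.
KIF4A promoter, chrX:70289954-70290123, plus strand: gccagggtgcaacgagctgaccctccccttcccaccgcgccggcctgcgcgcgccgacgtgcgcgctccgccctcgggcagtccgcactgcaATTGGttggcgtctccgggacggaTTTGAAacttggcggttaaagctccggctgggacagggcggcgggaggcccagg
KIF11 promoter, chr10:92592980-92593149, plus strand: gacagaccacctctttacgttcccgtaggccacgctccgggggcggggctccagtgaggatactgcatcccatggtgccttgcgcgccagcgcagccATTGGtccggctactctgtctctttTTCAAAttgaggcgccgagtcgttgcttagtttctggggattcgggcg
KIF14 promoter, chr1:200620732-200620901, minus strand: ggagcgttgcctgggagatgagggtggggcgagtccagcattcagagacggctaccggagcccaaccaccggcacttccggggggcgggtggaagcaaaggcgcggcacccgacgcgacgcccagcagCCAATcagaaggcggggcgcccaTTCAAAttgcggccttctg
KIF23 promoter, chr15:69414199-69414368, plus strand: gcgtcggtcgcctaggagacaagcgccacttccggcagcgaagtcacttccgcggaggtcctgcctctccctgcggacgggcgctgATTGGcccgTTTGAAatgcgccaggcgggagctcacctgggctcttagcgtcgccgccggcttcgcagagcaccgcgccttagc
KIF24 promoter, chr9:34329249-34329418, minus strand: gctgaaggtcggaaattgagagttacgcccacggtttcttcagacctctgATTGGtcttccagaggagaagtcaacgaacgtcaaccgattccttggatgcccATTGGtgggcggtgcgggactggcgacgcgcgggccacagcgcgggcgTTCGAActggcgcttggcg
KIF20A promoter, chr5:138178962-138179131, plus strand: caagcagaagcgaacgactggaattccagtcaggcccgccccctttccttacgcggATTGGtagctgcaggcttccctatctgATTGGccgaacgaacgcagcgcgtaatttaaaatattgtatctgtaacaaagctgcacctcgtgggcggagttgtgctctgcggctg
KIF22 promoter, chr16:29790601-29790770, plus strand: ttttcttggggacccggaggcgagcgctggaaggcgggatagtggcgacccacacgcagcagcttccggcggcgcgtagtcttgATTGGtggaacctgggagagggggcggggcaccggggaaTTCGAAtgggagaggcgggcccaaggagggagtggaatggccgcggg
KIF5B promoter, chr10:32056406-32056575, minus strand: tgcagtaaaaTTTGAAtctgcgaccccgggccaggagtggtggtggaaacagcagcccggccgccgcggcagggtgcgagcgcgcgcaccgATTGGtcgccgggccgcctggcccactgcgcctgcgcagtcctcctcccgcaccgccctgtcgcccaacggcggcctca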

How the data were processed

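Expression was measured on Illumina bead arrays, with biotin-labelled cRNA from TRIzol-extracted RNA, in 2 miR-31 and 2 miR-NC samples of LNCaP cells. The authors deposited linear bead intensity before normalization, as the file headers name it. The submitters' processing notes name BeadStudio, whose background setting is not given in the sources used here. A deposited detection score from 0 to 1 rose with the signal, so 1 minus the score served as detection p. The authors' normalized intensity values, linear with a common median of 14.3 in each column, served as an alternative after raising values under 16 to 16 and taking log2. That floor was chosen after the values were seen.

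Columns were matched to samples by name. With limma 3.58.1 in R 4.3.3, the steps of neqc were applied: normal-exponential background correction from the detection p, an offset of 16, quantile normalization and log2. Testing was limited to the 18354 probes detected, at p under 0.05, on 2 or more of the 4 arrays. The fit used lmFit and eBayes with an intensity trend, two-sided, adjusted by Benjamini-Hochberg over all tested probes (2 residual and 7.19 prior degrees of freedom). With 2 arrays a group, exact permutation gives no p under 0.333. Errors are SE from the fit. A gene was represented by its brightest tested probe on average over all arrays. For genes undetected throughout a group, bounds compare the brighter mean with the mean, over the dim arrays, of the lowest detected signal or the probe's own where that was higher. These bounds do not allow for the spread between arrays. Of the array's probes, 30113 had 1 symbol, 8 several and 17110 none in the platform annotation. The fit was tested on simulated data.

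Kinesins, their roles and the partner lists were chosen with earlier results of these data known. All members are accounted for. From each list of partners the 4 genes with the smallest p were named, with CENPE, KLC1, KLC2 and KIFAP3. Lists are described by counts and medians with no set test. Kinesin family numbers were assigned by common nomenclature. Alternatives are given in the closing section.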

Additional observations from a re-analysis of the deposited data

How the results depend on the processing

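Results depended most on normalization, on the variance model and on single arrays. Of the results on single genes, 255 kept their side of the threshold and their direction under the alternatives, 47 lost a call and 7 gained one. With arrays aligned on their medians 0 mitotic kinesins were lower in limma and 0 transport kinesins higher (10 of 25 kinesins at an unadjusted p under 0.05), 1 kinesin was lower and 0 higher in all, the transport median was -0.10 and 106 probes passed, against 1132 in the main setting. The authors' values gave 3 mitotic kinesins lower, 1 transport kinesin higher, and 4 kinesins lower and 1 higher in all. Without a variance trend 3 mitotic and 4 kinesins in all were lower, 0 transport kinesins and 0 kinesins in all were higher (14 kinesins at an unadjusted p under 0.05), and 359 probes passed. With no filter on dim probes 1 transport kinesin and 1 kinesin in all was higher, and the transport median was -0.075 over 15 genes. The mitotic median was -0.70 with no background correction and -0.86 with an offset of 50. The transport median was 0.11 with KIF21A counted in.

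With the replicate block 9 mitotic kinesins were lower, among them KIFC1, tested through the miR-NC arrays alone. In that run 1 transport kinesin was lower and 2536 probes passed. The labels give only a repeat number and do not state a pairing, so the numbers were not taken as pairs. The deviations of the same-numbered arrays correlated at 0.216 over the tested probes, which does not settle whether they were paired.

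With each array left out in turn, mitotic kinesins lower ran from 0 to 8, transport kinesins lower from 0 to 1 and higher from 0 to 2, kinesins lower in all from 0 to 10 and higher from 0 to 2, and probes past the threshold from 0 (without miR-31 replicate 1 or replicate 2, with 3022 and 2759 at an unadjusted p under 0.05) to 2085 (without miR-NC replicate 2). The mitotic median ran from -1.29 to -0.97 and the transport median from -0.015 to 0.10. The fit then assumes that the lone array varies like the other group's arrays.

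Values near 0 turned their sign without any call. With median alignment these were KIF21A (-0.023) and KIFC2 (-0.020). With each array left out in turn, KIF1B ran from -0.22 to 0.068 (without miR-31 replicate 1), KIF1C from -0.36 to 0.034 (without miR-31 replicate 2), KIF25 from -0.45 to 0.065 (without miR-NC replicate 1, and 0.064 without miR-31 replicate 1), KIF3B from -0.30 to 0.026 (without miR-NC replicate 2), and KIF16B from -0.064 (without miR-31 replicate 2, and -0.044 without miR-NC replicate 2) to 0.29. The cause was not tested. Dim signals limit KIFC1, KIF18A, KIF5A, KIF24 and KIF25, each undetected on at least 1 array.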
